A study of Mus musculus with 5 samples.

Results

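The ERVL and MaLR long terminal repeat (LTR) elements were taken as every repeat name that begins with MTA, MTB, MTC, MTD, MTE, MT-, MT2, MERVL, ORR1 or MLT, with any class label after the name left off. The rule found 79 names among 1031 in all, of which 31 had 20 or more reads over the 5 libraries and 48 had fewer. The libraries hold RNAs of medium length, with inserts of 115 to 255 nt, from C57BL/6J mice at postnatal day 7, and the tables give reads per repeat name. Whole-testis RNA was left untreated, treated with TAP (25 U for 1.5 h), which the labels call tobacco alkaline phosphatase, or treated with 5' polyphosphatase (5Pase, 20 U for 0.5 h), with 1 library for each. Spermatogonia, the mitotic germ cells, were purified by FACS after EpCAM labelling, their RNA was treated with RppH, and 2 replicate libraries were made. TAP and RppH open both caps and 5' triphosphates, 5Pase opens triphosphates and leaves caps in place, and untreated RNA can be ligated where it already carries a 5' monophosphate. Whole testis at this age holds somatic cells besides spermatogonia. The labels name the TruSeq kit for all libraries and the methods name NEBNext for the spermatogonia, so cell source, enzyme and library kit changed together and cannot be told apart in any comparison of spermatogonia with testis. In such bulk RNA, fewer cells of a type and less RNA per cell cannot be told apart either. The tables list repeats and structural RNAs, so the spermatogonia label could not be checked here against marker mRNAs.

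MaLR elements are nonautonomous relatives of the ERVL endogenous retroviruses. They comprise the mouse MT and ORR1 elements and the much older MLT1 elements shared by mammals, and within MT the letters run roughly from the youngest, MTA, to the oldest, MTE. MERVL is the mouse ERVL that keeps retroviral genes, MT2_Mm is its LTR, and the other MT2 names are LTRs of older relatives. An LTR carries the promoter and the polyadenylation signal of its element, and names ending in -int denote the internal part between LTRs. MT LTRs are known as promoters in oocytes, and MERVL with its MT2_Mm LTR is known for its activity in the early embryo. Transcripts from these promoters are usually longer than the inserts selected here, so a read counts a short RNA or a piece that lies in the repeat, not a whole transcript. Names also differ in length and in the number of genomic copies, so read numbers were compared between libraries and never as levels between names.

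The label held for most of the list. In the class labels of the spermatogonia tables, 48 names were ERVL-MaLR and 10 were ERVL, while 8 names appeared only in testis tables and had no class there. The remaining 13, all names that begin with MLTR, were classed as ERVK (11 names) or ERV1 (2 names) and entered through the letters MLT alone. They held 2 reads in untreated testis, 0 in the other testis libraries, and 22 and 15 in spermatogonia.

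The libraries listed between 1067851 and 3166394 reads, and 5.8S rRNA took from 19.2% to 50.2% of them. Values are given as reads per 1000000 5.8S rRNA reads (RPM), the scale of the study, and as reads per 1000000 listed reads where that changes a statement. A name that was not listed for a library was counted as 0 there. A count of 0 allows up to 3 reads, which is 9.49 RPM in untreated testis, 5.60 with TAP, 14.4 with 5Pase, and 2.43 and 5.82 in spermatogonia. Intervals are 95% intervals from the read counts that cover counting error only and leave out differences between libraries. The reads carry no molecular identifiers, so repeated reads of the same molecule could not be set aside. The repeat names of the testis and spermatogonia tables were not always the same: all 19 ERVL and MaLR names with 10 or more testis reads were also listed in spermatogonia, as were 16 of 17 other LTR names, 29 of 30 SINE names and 10 of 19 LINE names.

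ERVL and MaLR repeats gave 114 reads in untreated testis, 228 with TAP, 162 with 5Pase, and 1285 and 828 in the spermatogonia replicates. That is 361 RPM in untreated testis, 425 with TAP and 779 with 5Pase, against 1039 and 1606 RPM in spermatogonia (1322 ± 401, SD, n = 2). On this scale both spermatogonia libraries lay above every testis library. Per 1000000 listed reads the order within testis was different, at 98.2 untreated, 214 with TAP and 150 with 5Pase, and the spermatogonia replicates lay close together at 406 and 415. They were a minority of all LTR reads in every library, with 24.3% in untreated testis, 34.5% with TAP, 31.3% with 5Pase, and 34.3% and 36.0% in spermatogonia.

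**Figure D1:**
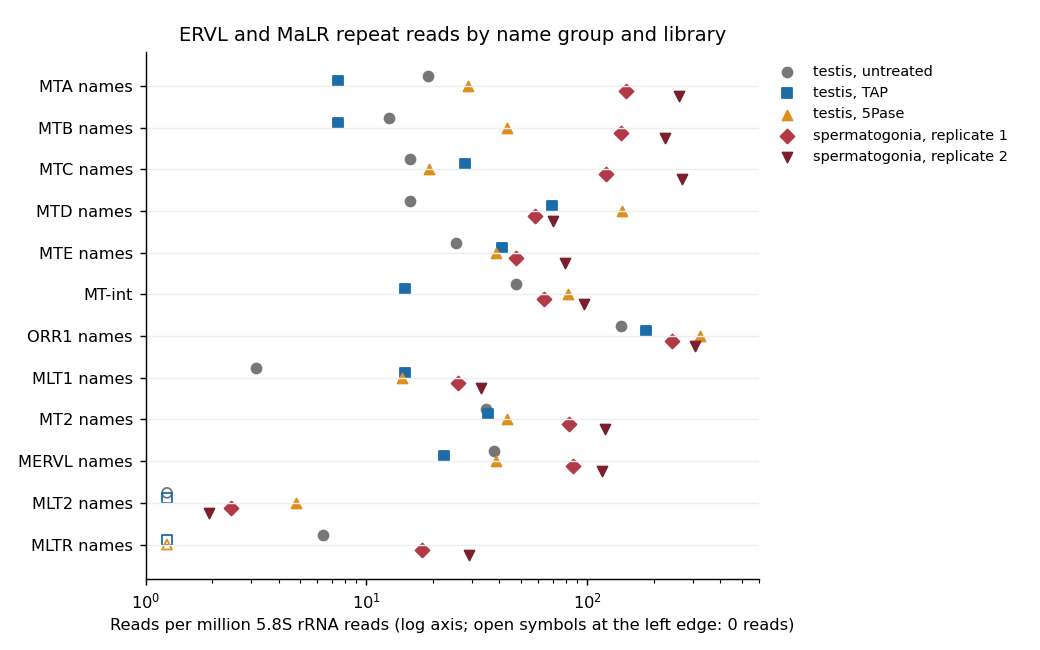
Reads per 1000000 5.8S rRNA reads (log axis) of each group of names in the 5 libraries, 1 symbol per library. Both spermatogonia symbols stand to the right of all testis symbols for MTA, MTB and MTC, whereas for MTD the 5Pase library is the highest at 144 RPM and the TAP and spermatogonia symbols lie between 58.2 and 69.8 RPM.

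The make-up of these reads differed between testis and spermatogonia libraries, and it does not depend on the denominator. Repeat names were not always the same on the testis and spermatogonia sides. Naming therefore cannot be told apart from cell source, enzyme and kit here. The LTR names of the young MT groups (MTA_Mm, MTB, MTB_Mm and MTC) held 7.89% of the ERVL and MaLR reads in untreated testis, 8.33% with TAP and 8.64% with 5Pase, against 38.4% and 46.3% in spermatogonia (42.3 ± 5.58, SD, n = 2). Among the reads of all MT names they made up 20.9% untreated (95% Wilson interval 11.4 to 35.2), 21.1% with TAP (14.0 to 30.6) and 18.9% with 5Pase (11.6 to 29.3), and 68.4% (64.9 to 71.7) and 74.4% (70.4 to 77.9) in spermatogonia. This division of MT names was drawn after their values had been seen, so these shares are a description and carry no test. ORR1 names held 39.5%, 43.4% and 41.4% of the ERVL and MaLR reads in untreated, TAP and 5Pase testis and 23.3% and 19.1% in spermatogonia. Shares add up to a fixed total, so a larger share of 1 group leaves less for the others. Per 5.8S rRNA read, ORR1 reads were not lower in spermatogonia than in TAP testis (given with the ORR1 names). Against 5Pase testis they were lower in replicate 1 with an interval clear of 1, and per listed read the intervals against TAP included 1. The LTR names of the older MTD and MTE groups held 11.4% untreated, 25.0% with TAP, 21.6% with 5Pase, and 8.17% and 7.25% in spermatogonia. MT2 names kept between 5.56% and 9.65% in all 5 libraries and MERVL names between 4.94% and 10.5%.

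**Figure D2:**
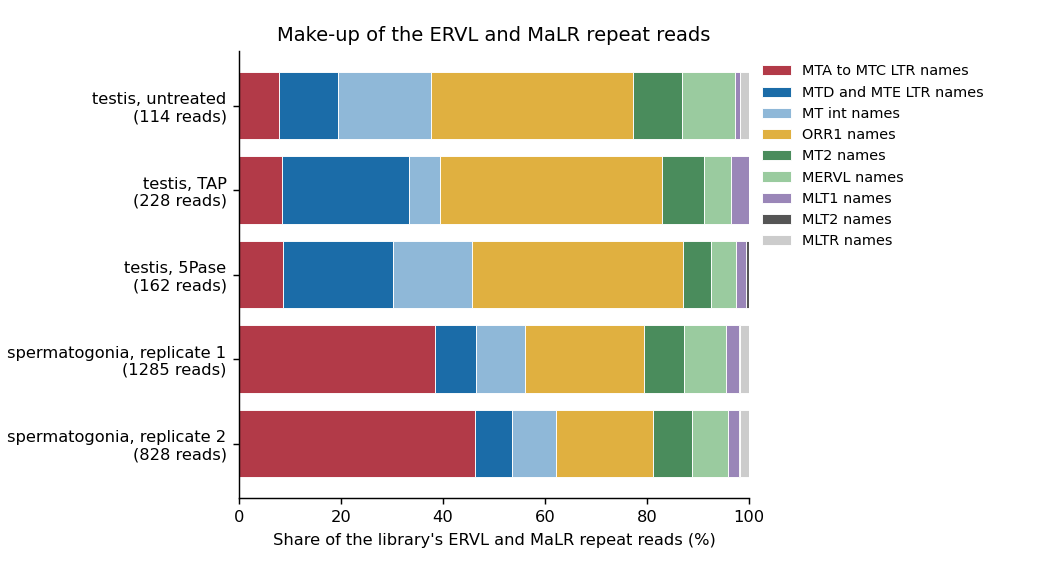
Share of each library's ERVL and MaLR reads (%) held by each group of names, 1 bar per library with its read number beside it. The MTA to MTC LTR segment fills 7.89% to 8.64% of the testis bars and 38.4% and 46.3% of the spermatogonia bars, and the ORR1 segment is the largest of the testis bars.

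MTA_Mm, the LTR of the youngest MT group, had 5 reads in untreated testis, 4 with TAP and 6 with 5Pase, against 186 and 134 in spermatogonia. Its levels were 15.8, 7.46 and 28.8 RPM in testis and 150 and 260 RPM in spermatogonia. It was 20.2-fold (7.48 to 54.3) and 34.8-fold (12.9 to 94.1) above the TAP library in the replicates, and 5.21-fold (2.31 to 11.8) and 9.01-fold (3.98 to 20.4) above the 5Pase library. The other MTA name had 1 read, in untreated testis.

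MTB and MTB_Mm are LTRs of the next group. MTB had 2, 4 and 4 reads in untreated, TAP and 5Pase testis, and 116 and 73 in spermatogonia. Its spermatogonia levels of 93.8 and 142 RPM were 12.6-fold (4.64 to 34.0) and 19.0-fold (6.93 to 51.9) above TAP testis. MTB_Mm had 0 reads in untreated and TAP testis and 3 with 5Pase, and 59 and 43 in spermatogonia. Against the floor of 3 reads in the TAP library it was at least 8.52-fold and at least 14.9-fold higher in the replicates, and with 3 reads in the 5Pase library its ratios there were 3.31 (1.04 to 10.5) and 5.78 (1.79 to 18.6).

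MTC had 2 reads in untreated testis, 11 with TAP and 1 with 5Pase, and 132 and 133 in spermatogonia. Those are 107 and 258 RPM in the replicates, the widest gap between them among the young MT names, and 41.7 and 66.7 per 1000000 listed reads. Against TAP testis it was 5.20-fold (2.81 to 9.62) and 12.6-fold (6.80 to 23.2) higher. Its TAP to 5Pase ratio was 4.27 (0.55 to 33.1) per 5.8S rRNA read, where a difference was not detectable at this depth, and 11.1 (1.44 to 86.3) per listed read, on the 1 read of the 5Pase library. The internal name MTC-int had 3, 4 and 3 reads in testis and 18 and 5 in spermatogonia, and its ratios to TAP testis, 1.95 and 1.30, had intervals that included 1.

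MTD was the member name with the most reads in the enzyme-treated testis libraries. It had 5 reads in untreated testis, 37 with TAP and 30 with 5Pase, and 72 and 36 in spermatogonia. Both treated testis libraries, at 69.0 RPM with TAP and 144 RPM with 5Pase, lay above the untreated 15.8 RPM. The ratio to untreated was 4.36 (1.72 to 11.1) for TAP and 9.12 (3.54 to 23.5) for 5Pase, and per listed read 8.05 (3.16 to 20.5) and 6.44 (2.50 to 16.6). In spermatogonia MTD stood at 58.2 and 69.8 RPM, 0.84-fold (0.57 to 1.25) and 1.01-fold (0.64 to 1.60) the TAP level, where MTA_Mm, MTB and MTC were 5.20-fold or more above TAP in each replicate. Its share of the ERVL and MaLR reads was 16.2% with TAP and 18.5% with 5Pase, against 5.60% and 4.35% in spermatogonia.

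The MTE names, the oldest of the MT groups, were sparse. MTE2a had 4, 7 and 2 reads in testis and 2 and 6 in spermatogonia, MTE2b had 2, 6 and 0 and then 12 and 8, and MTEa had 1, 3 and 2 and then 14 and 8. None of these LTR names was higher than TAP testis in both replicates with an interval clear of 1. MTE-int had 0 reads untreated, 2 with TAP, 3 with 5Pase, and 26 and 17 in spermatogonia. It was 5.63-fold (1.34 to 23.7) and 8.84-fold (2.04 to 38.2) above TAP testis. Over MTD and MTE together, the LTR names were 0.80-fold (0.58 to 1.10) and 1.09-fold (0.76 to 1.57) the TAP level in the replicates, while the LTR names of MTA to MTC were 11.2-fold (7.11 to 17.8) and 21.0-fold (13.2 to 33.2). As with the shares, this division was drawn after the values had been seen, so the contrast is a description and carries no test.

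MT-int, the internal part shared by MT elements, had 15 reads in untreated testis, 8 with TAP and 17 with 5Pase, and 79 and 50 in spermatogonia. It was the member with the most untreated testis reads. With TAP it was lower than untreated, at 14.9 against 47.4 RPM, a ratio of 0.31 (0.13 to 0.74), but per listed read the ratio of 0.58 had an interval of 0.25 to 1.37. With 5Pase the ratio was 1.72 (0.86 to 3.45). The IAP names, another retrovirus-like LTR family outside the list, also had a TAP ratio of 0.31 (0.24 to 0.38), and there it stayed below 1 per listed read, at 0.56 (0.45 to 0.71). In spermatogonia MT-int was 4.28-fold (2.07 to 8.85) and 6.50-fold (3.08 to 13.7) above TAP testis, yet 0.78-fold (0.46 to 1.32) and 1.19-fold (0.68 to 2.06) the 5Pase level.

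ORR1, another MaLR group, had 20 names, of which 14 reached 20 reads, more than in any other group. Its reads numbered 45, 99 and 67 in untreated, TAP and 5Pase testis and 299 and 158 in spermatogonia, or 142, 185 and 322 RPM against 242 and 306 RPM. The spermatogonia values lay between the TAP and 5Pase libraries, at 1.31-fold (1.04 to 1.64) and 1.66-fold (1.29 to 2.13) the TAP level and 0.75-fold (0.58 to 0.98) and 0.95-fold (0.71 to 1.27) the 5Pase level. Per listed read the TAP comparison gave 1.02 (0.81 to 1.28) and 0.86 (0.67 to 1.10).

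ORR1A, the youngest ORR1 group, held 381 of the 668 ORR1 reads. ORR1A2 had 10, 13 and 17 reads in untreated, TAP and 5Pase testis and 20 and 18 in spermatogonia, although the spermatogonia libraries were deeper. Its 81.7 RPM with 5Pase was 2.58-fold (1.18 to 5.64) the untreated level and stood above both spermatogonia replicates, at 16.2 and 34.9 RPM. ORR1A4 had 8, 11 and 8 testis reads against 15 and 12, and ORR1A3 had 2, 6 and 4 against 10 and 3. ORR1A0 had 2, 1 and 2 reads in testis and 9 and 8 in spermatogonia, and ORR1A1 had 3, 5 and 2 and then 11 and 10. Among the internal names, ORR1A3-int had 3, 9 and 13 testis reads and 66 and 30 in spermatogonia, 3.18-fold (1.58 to 6.38) and 3.47-fold (1.65 to 7.30) above TAP testis, and ORR1A1-int had 3, 4 and 6 and then 22 and 13. Over all ORR1 internal names the ratios to TAP were 2.20 (1.41 to 3.45) and 2.31 (1.41 to 3.77), and over the ORR1 LTR names 1.04 (0.79 to 1.36) and 1.46 (1.09 to 1.96), with intervals of LTR and internal names that were apart in replicate 1 and overlapped in replicate 2.

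Among the testis libraries, the older ORR1C and ORR1D names had most of their reads with TAP, at low counts. ORR1D1 had 2 reads untreated, 12 with TAP and 0 with 5Pase, ORR1C2 had 0, 7 and 1, and ORR1C1 had 1, 2 and 0. Over the ORR1D names the TAP to 5Pase ratio was 6.21 with an interval of 0.82 to 46.8, so a difference was not detectable on this scale, and per listed read it was 16.2 (2.15 to 122). In spermatogonia ORR1D1 had 20 and 15 reads, ORR1D2 13 and 8, ORR1C1 17 and 3, and ORR1C2 19 and 5. ORR1B names had similar 5.8S-based levels across cell sources. ORR1B1 had 6, 10 and 7 testis reads and 28 and 12 in spermatogonia, ORR1B2 had 3, 4 and 2 and then 9 and 5, and ORR1B1-int had 1, 6 and 3 and then 16 and 4. Over ORR1B the ratios to TAP testis were 1.15 (0.69 to 1.92) and 1.09 (0.59 to 2.01).

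Among the ERVL names, MERVL-int, which covers the retroviral genes of MERVL, had 8 reads in untreated testis, 10 with TAP and 6 with 5Pase, and 87 and 48 in spermatogonia. That is 25.3, 18.7 and 28.8 RPM in testis and 70.3 and 93.1 RPM in spermatogonia. The ratio to TAP was 3.77 (1.96 to 7.25) and 4.99 (2.52 to 9.86), and that to 5Pase 2.44 (1.07 to 5.58) and 3.23 (1.38 to 7.54). MT2_Mm, the LTR of the same element, had 2, 5 and 4 reads in testis and 24 and 17 in spermatogonia. Its ratios to TAP were 2.08 (0.79 to 5.45) and 3.53 (1.30 to 9.58), and those of its internal part lay inside both intervals.

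MERVL_2A-int, an older internal name, had 4, 2 and 2 testis reads and 19 and 12 in spermatogonia. The LTR name MT2B had 7, 9 and 3 reads in testis and 33 and 24 in spermatogonia, MT2A had 1, 3 and 1 and then 12 and 7, and MT2C_Mm had 1, 1 and 1 and then 15 and 6. For the MT2 and MERVL names, all 4 intervals of treated over untreated testis included 1. For MT2 the ratio to untreated was 1.02 (0.48 to 2.14) with TAP and 1.24 (0.52 to 3.0) with 5Pase, and for MERVL 0.59 (0.26 to 1.31) and 1.01 (0.41 to 2.48).

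The other MLT names were near the floor. The 20 MLT1 names had between 1 and 8 reads each over all libraries, with 1, 8 and 3 reads in untreated, TAP and 5Pase testis and 32 and 17 in spermatogonia, and their ratios to TAP were 1.73 (0.80 to 3.76) and 2.21 (0.95 to 5.12). The 3 MLT2 names, old relatives of MT2, had 0, 0 and 1 testis reads and 3 and 1 in spermatogonia. In all, the 48 names with fewer than 20 reads held 194 of the 2617 ERVL and MaLR reads, and 28 names (35.4%) were listed in spermatogonia and in no testis library, as were 31.5% of all names, 48.1% of other LTR names and 46.8% of LINE names. The spermatogonia libraries were the deeper ones.

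The enzyme comparisons ask which repeat RNAs carry a cap or a triphosphate. A name was called past 2-fold where its 2 libraries together held 20 or more reads, the ratio was at least 2 or at most 0.5, and the interval lay on the same side of 1. Only 3 of the 79 names had the reads for TAP against untreated testis. MTD was called higher, where 26% of all 254 names tested were, and MT-int lower, where 50.4% were, and ORR1A2 was not called. Per listed read MTD alone was called, against 33.5% of all names higher and 36.6% lower. Over all members the TAP to untreated ratio was 1.18 (0.94 to 1.48), and per listed read 2.17 (1.74 to 2.72). Other LTR names together gave 0.72 (0.62 to 0.83) and LINE names 1.22 (1.05 to 1.42) per 5.8S rRNA read. For comparison, 5S rRNA, an RNA polymerase III transcript known to carry a 5' triphosphate, gave 4.14 with TAP and 7.18 with 5Pase. The paper reports a clearly larger rise of this rRNA with TAP on the same kind of scale. The cause of that difference was not tested, so this control sets no firm level for a triphosphate RNA.

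With 5Pase, the same 3 names had the reads, and MTD and ORR1A2 were called higher than untreated, with 36.4% of all 253 names called higher and 3.16% lower. No member was called lower. Per listed read MTD was again the single member called, where 24.5% of all names were higher and 5.53% lower. The total was 2.16-fold (1.70 to 2.74) the untreated level, and 1.53-fold (1.20 to 1.94) per listed read, beside 1.52 (1.32 to 1.77) for other LTR names and 1.87 (1.58 to 2.21) for LINE names per 5.8S rRNA read. The direct ratio of TAP, which opens caps, to 5Pase, which does not, was 0.55 (0.45 to 0.67) per 5.8S rRNA read and 1.43 (1.17 to 1.74) per listed read, so its direction depended on the denominator. With snoRNA, snRNA and rRNA names left out of the listed reads it was 1.14 (0.93 to 1.39), and the ratio of 5Pase to untreated was 1.0 (0.79 to 1.27). All 4 names with enough reads (MT-int, MTD, ORR1A2 and ORR1A3-int) were called lower with TAP per 5.8S rRNA read, as were 72.9% of all 273 names, and none was called higher, as were 4.76%. Per listed read no member was called, where 15% of all names were higher and 36.3% lower. With 1 library per treatment these differences have no replicate check.

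**Figure D3:**
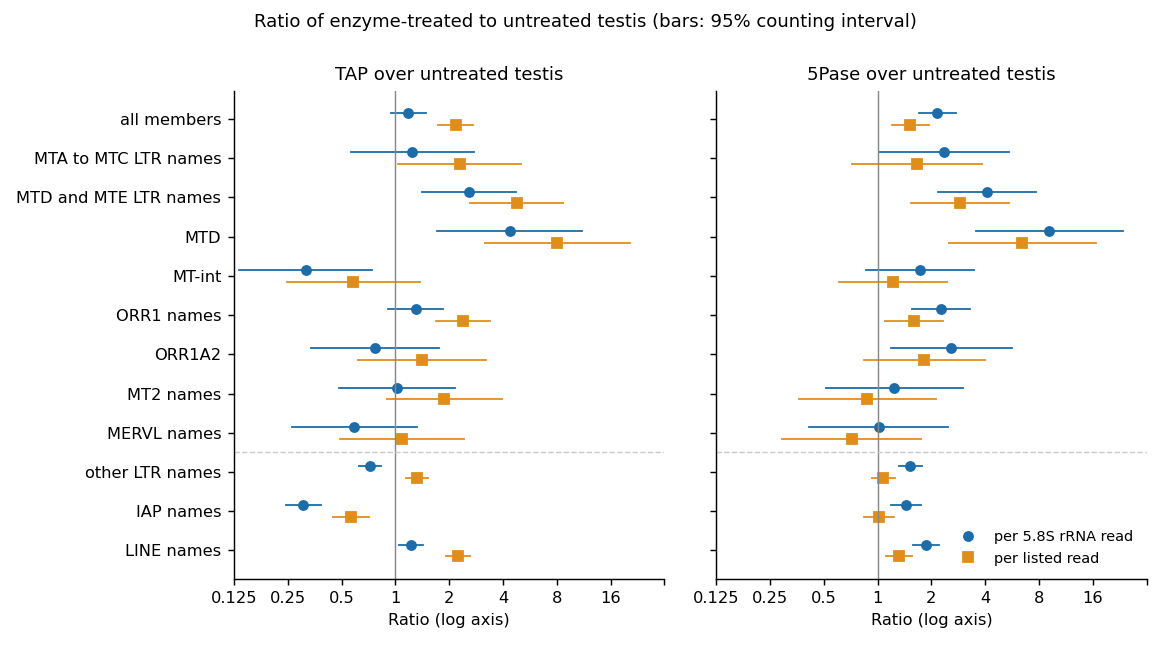
Ratio of TAP-treated (left) and 5Pase-treated (right) to untreated testis (log axes) per 5.8S rRNA read and per listed read, with 95% counting intervals. MTD stands to the right of 1 in both panels and on both scales, from 4.36 to 9.12, and the names below the dashed line are LTR and LINE names outside the list.

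The comparison of spermatogonia with TAP testis asks which of these RNAs are more abundant in the purified germ cells. Over all members the ratio was 2.44 (2.12 to 2.81) and 3.78 (3.26 to 4.37) in the replicates, a mean of 3.11 ± 0.94 (SD, n = 2), and 1.90 and 1.95 per listed read. With snoRNA, snRNA and rRNA names left out of the listed reads it turned to 0.55 ± 0.094 (SD, n = 2). The total of the other LTR names stood at 3.01 ± 0.76 and that of LINE names at 5.40 ± 1.74. Of 27 member names listed in both kinds of table with 20 or more reads, 8 were called past 2-fold higher in both replicates (MTA_Mm, MTB, MTB_Mm, MTC, MTE-int, MT-int, MERVL-int and ORR1A3-int), where 47% of all 411 names were, and 0 were called lower, where 14.6% were. Per listed read the same names without ORR1A3-int were called, 7 in all, where 38.7% of all names were higher, and 0 lower, where 19% were. Of the 27 names, 26 passed the read filter through their spermatogonia reads, as did 197 of all 411 names. The filter thus favoured higher calls over lower ones, so these counts are a description and carry no test.

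In edgeR's quasi-likelihood test, with 5.8S rRNA reads as library size and Benjamini-Hochberg adjustment over all 411 names, 5 of the 27 rose in spermatogonia and 0 fell, and of all names 37.5% rose and 10.5% fell. Only MTD had 20 reads in the TAP library itself, and the other 26 names passed the read filter through their spermatogonia reads, so these counts describe the fit and support nothing further. At an unadjusted p under 0.05 the members numbered 7 higher and 0 lower, and all names 178 higher and 52 lower of 411. TMM scaling gave 2 members lower at that unadjusted threshold, and DESeq2 gave 0. Of the 5, MTA_Mm rose by 4.75 on the log2 scale, MTB by 3.94 and MTC by 3.13. MTB_Mm and MT2C_Mm were the other names called, with 0 and 1 reads in the single TAP library. All 5 passed the read filter through their spermatogonia reads, so no p-value is given for them as support. With listed reads as library size 3 members rose, where 29.4% of all names did, and 0 fell, where 14.4% did. Scaling by TMM, edgeR's trimmed mean of M values, gave 3 (21.7% of all names) and 0 (18%), and DESeq2 gave 2 (26.9%) and 0 (24.5%). Without a filter and with all names of any table, MTA_Mm, MTB, MTB_Mm and MTC rose. With all 5 libraries in the fit MTE-int took the place of MTC. These are 4 members each time, where 24.8%, 44.6% and 37.5% of all names did, and 0 fell, where 7.93%, 11.9% and 11.9% did. MTC did not pass with listed reads as library size (edgeR adjusted p = 0.0533), with TMM (0.0820), with DESeq2 (0.168) or with all 5 libraries (0.0514), and MT2C_Mm passed under none of the alternatives, with no adjusted p from DESeq2. The other LTR names had 9 of 27 higher and LINE names 2 of 24, and with all names of any table, which brings in LINE names listed on 1 side alone, 14 of 33 and 34 of 58.

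The scale of this fit was shifted for all names, with a median log2 fold change of 1.71 per 5.8S rRNA read and 1.04 per listed read. Against that, the members' median was 1.43 and 0.77. Under both scalings and under TMM and DESeq2 scaling, the same members lay above the median of all names. They were MTA_Mm, MTB, MTB_Mm, MTC, MT-int, MTE-int, MT2C_Mm, MERVL-int, MERVL_2A-int, ORR1A3-int and ORR1D2, the last pair only slightly. Every other member in the fit lay below it under all of them, among them MTD, MTC-int, MT2_Mm, ORR1A2, ORR1A4 and ORR1D1. A change of scaling shifts all names and their median nearly alike, so this agreement was largely fixed in advance and carries no support. The sign for ORR1A2 itself turned with the scaling, from 0.02 per 5.8S rRNA read to -0.68 per listed read, and its test was not passed in either case. The fit has 1 residual degree of freedom, from the spermatogonia pair, and assumes that the lone testis library varies alike. The labels do not say that the pair came from separate animals, so the p-values may measure technical spread alone.

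**Figure D4:**
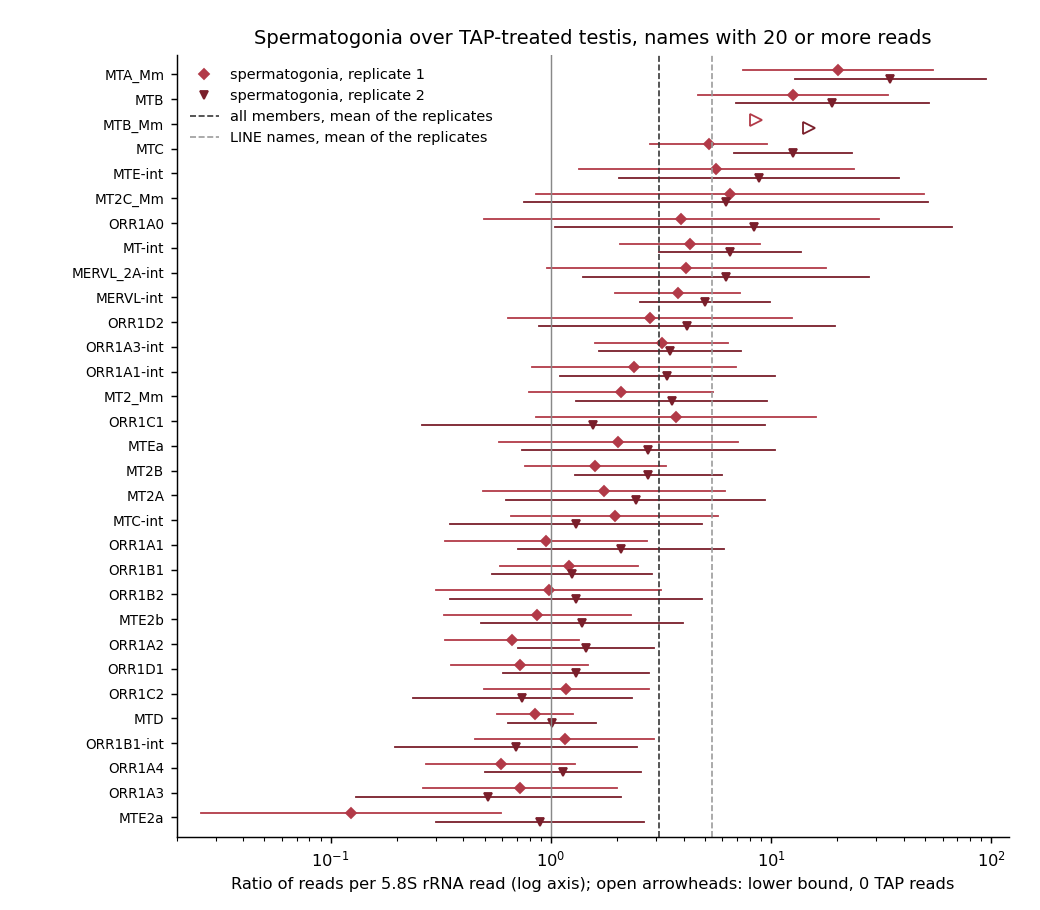
Ratio of each spermatogonia replicate to TAP testis per 5.8S rRNA read (log axis) for the 31 names with 20 or more reads, with 95% counting intervals and, for MTB_Mm, open arrowheads at the lower bounds. Names of MTA, MTB and MTC LTRs stand at the top, MTD and most ORR1A LTR names lie near 1, and the dashed lines mark the total of all members at 3.11 and of LINE names at 5.40.

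Against 5Pase testis, 5 of 27 names were called past 2-fold higher in both replicates (MTA_Mm, MTB, MTB_Mm, MTC and MERVL-int), where 23.5% of all 408 names were, and 2 lower (MTD and ORR1A2), where 31.9% were. Per listed read MT2B joined the higher names to give 6, against 33.1%, and no name was called lower, against 24.3%. The total was 1.33-fold (1.13 to 1.57) and 2.06-fold (1.74 to 2.44) the 5Pase level, and per listed read 2.71-fold and 2.77-fold. With snoRNA, snRNA and rRNA names left out of the listed reads, the mean over the replicates was 0.62. The comparisons with TAP and with 5Pase share the spermatogonia libraries and are not independent. Here too the read filter counted spermatogonia reads, so the counts of calls are a description. MTA_Mm, MTB and MTC had ratios from 4.88 to 53.7 to both testis libraries in both replicates, while MTD was at 0.40 (0.26 to 0.62) and 0.48 (0.30 to 0.79) of its 5Pase level. The top of that range rests on a single MTC read with 5Pase, and MTA_Mm and MTB also had few reads in these testis libraries.

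In the spermatogonia pair, replicate 2 was 1.55-fold (1.42 to 1.69) above replicate 1 over all members per 5.8S rRNA read and 1.02-fold (0.94 to 1.12) per listed read. Of the 26 member names with 20 or more reads in the pair, 24 had an interval that included the ratio of the total. MTC lay above it, at 2.42 (1.90 to 3.08), and ORR1C1 below it, at 0.42 (0.12 to 1.44).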

How the data were processed

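The deposited files give raw read counts per repeat or structural RNA name in 1 table per library, made by the authors from single-end reads trimmed with cutadapt, with reads lacking an adaptor discarded and RepeatMasker used to assign names. Versions, repeat library and genome build were not given in the sources used here. Names were matched between tables after dropping the class. The members, groups and lists were chosen with earlier results of these data known. Names with 20 or more reads were described one by one and the rest by counts and range. Ratio intervals took the variance of the log ratio as the sum of the reciprocal counts, and shares had Wilson intervals. Spermatogonia and TAP testis were compared with edgeR 4.0.16 (quasi-likelihood, threshold 0.05) on names listed in both kinds of table with 20 or more reads in the 3 libraries, with DESeq2 1.42.0 as an alternative. Intervals and fit were tested on simulated counts. In all, 2 lines without a count were left out.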

Additional observations from a re-analysis of the deposited data

How the results depend on the processing

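Of 30 alternative values for the 5 ratios of the total, with left-out replicates aside, 21 stayed within the counting interval or the replicate SD of the reported value, among them all of those without MLTR names, with names that begin with ERVL added, without the member name with the most reads (MTD for testis pairs, MTA_Mm with spermatogonia) and with LTR names alone. With LTR names alone, TAP over untreated came to 1.43 (1.09 to 1.87). That interval was clear of 1, unlike that of the reported 1.18 (0.94 to 1.48). MLTR names held 39 reads and the ERVL name 5, beside 2617 of all members, so these changes could hardly move a total. With listed reads as denominator the ratio became 2.17 for TAP over untreated, 1.53 for 5Pase over untreated, 1.43 for TAP over 5Pase (a reversal), 1.92 for spermatogonia over TAP and 2.74 over 5Pase. With snoRNA, snRNA and rRNA names left out of the listed reads, 5Pase over untreated came to 1.0 (0.79 to 1.27) and lost its difference. TAP over 5Pase came to 1.14 (0.93 to 1.39), on the other side of 1 but with an interval that included 1. Spermatogonia over TAP came to 0.55 and over 5Pase to 0.62, so both turned to the other side of 1. SINE reads in that denominator numbered 176907 of 261254 and 137971 of 214659 in spermatogonia and 2878 of 28587 with TAP. Leaving out a spermatogonia replicate gave 2.44 to 3.78 for spermatogonia over TAP and 1.33 to 2.06 over 5Pase.

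Per listed read, the 2-fold calls fell from 1 to 0 lower names for TAP (MT-int) and from 2 to 1 higher names for 5Pase, without ORR1A2, and filters at 10 reads or none, with 0.5 added, kept MTD higher in both and MT-int lower with TAP and added ORR1A3-int to the 5Pase names, 3 in all. The edgeR count of 5 higher names became 3 with TMM, 3 with listed reads as library size and 2 of 13 with DESeq2, and 4 without a filter, with all names of any table or with all 5 libraries fitted, and no alternative called a member lower. Over all names the calls under TMM were 89 higher and 74 lower, against 154 and 43. DESeq2 kept MTA_Mm and MTB_Mm. MT2C_Mm passed in the reported fit alone, with edgeR adjusted p from 0.0512 to 0.256 elsewhere, and the cause was not tested. Chosen after seeing the data, the count of names past 2-fold over TAP was 12 (44.4%) without replicate 1 and 8 (29.6%) without replicate 2, where 59.4% and 48.4% of all names were called. Of the 27 member names in the reported fit, 26 passed the read filter through their spermatogonia reads. The filter favoured higher calls, so the absence of lower members across alternatives carries no support. Fitting edgeR without 1 spermatogonia replicate leaves no residual degrees of freedom, so no test was run. No paired analysis was possible because only the spermatogonia carry replicate numbers. Only 3 names reached 20 reads in the untreated and TAP pair.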

Other observations

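Other names that the spermatogonia tables class as ERVL, outside the list, numbered 19 and were sparse in testis. They had 1 read in untreated testis, 10 with TAP, 1 with 5Pase, and 61 and 34 in spermatogonia. RMER15, an LTR, held 44 of these reads, with 1 in untreated testis, 5 with TAP, 0 with 5Pase, and 26 and 12 in spermatogonia. RMER15-int had 0, 1 and 0 reads in testis and 6 and 5 in spermatogonia. The 19 names together were 2.64-fold (1.35 to 5.16) and 3.53-fold (1.75 to 7.15) above TAP testis per 5.8S rRNA read, and the ERVL names of the list were 2.95-fold (2.02 to 4.30) and 4.12-fold (2.78 to 6.12). ERVL-int, the single name that begins with ERVL, had 1 read with TAP and 2 in each spermatogonia replicate.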
